A study of Caenorhabditis elegans with 36 samples.

Results

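Muscle in Caenorhabditis elegans is fixed to the basement membrane through integrin adhesion complexes, and 10 genes that encode components of these complexes are described here. They were chosen by gene ID, not by their values: pat-2 (F54F2.1), pat-3 (ZK1058.2), unc-52 (ZC101.2), unc-112 (C47E8.7), pat-4 (C29F9.7), unc-97 (F14D12.2), pat-6 (T21D12.4), deb-1 (ZC477.9), unc-95 (Y105E8A.6) and unc-98 (F08C6.7). All 10 are among the 24931 named genes of the study, and all 10 had enough reads to be tested in every comparison. RNA was sequenced from whole animals in 36 libraries, 3 in each of 12 groups. The groups were mbl-1(tm1563) mutants, in which the gene of the muscleblind splicing factor carries a mutation, the wild type N2, 2 strains with a transgene of 123 CUG repeats (123CUG strain 1, mgIs64, and strain 2, mgIs84) and 2 strains with a transgene of 0 repeats (0CUG strain 1, mgIs65, and strain 2, mgIs85). In the transgenic strains the myo-3 promoter, which is active in body wall muscle, drives gfp with the repeats in its 3′ untranslated region. No group combines a transgene with the mutation. Each genotype was labelled both L4, the last larval stage, and 2-day adult, and all animals were synchronised with hypochlorite and grown on HT115 bacteria that carried an empty RNAi vector.

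Body wall muscle cells of the worm transmit force sideways, through dense bodies, which anchor the thin filaments, and M-lines, which anchor the thick filaments. At the base of both structures an integrin of an alpha and a beta subunit spans the membrane, binds the basement membrane outside and gathers a set of adaptor proteins inside, as at vertebrate focal adhesions. Loss of several of these proteins stops muscle assembly, and the embryos arrest paralysed, the phenotype that gave the pat genes their name.

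UNC-52 (perlecan) is the proteoglycan of the basement membrane beneath the muscle, PAT-2 is an alpha and PAT-3 the beta integrin subunit. UNC-112 (kindlin) binds the integrin tail, and PAT-4 (integrin-linked kinase), UNC-97 (PINCH, a LIM domain protein) and PAT-6 (parvin) form a complex with it. DEB-1 (vinculin) links the dense body to actin, UNC-95 is a LIM domain protein of dense bodies and M-lines, and UNC-98 is a zinc finger protein of M-lines and nuclei that binds UNC-97. By the deposited annotation (WBcel235) the genes are scattered over the genome. On chromosome III lie pat-4 (89451 to 94809, minus strand), pat-3 (3908915 to 3914138, minus) and pat-2 (8818902 to 8825270, plus). On chromosome IV lie pat-6 (261883 to 264234, minus) and deb-1 (7085218 to 7087907, minus), and on X unc-97 (5593133 to 5594939, plus) and unc-98 (7570376 to 7573676, minus). Chromosome V holds unc-112 (14691852 to 14696654, minus), II holds unc-52 (14661269 to 14666943, minus) and I holds unc-95 (14381361 to 14384737, minus). All 10 are annotated as protein coding, and reads were counted per gene. For unc-52 and deb-1 the listed span is shorter than the listed model length (11584 and 3747 bases), so the spans of these 2 genes are not their whole extent.

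Before any result, the stage labels were compared with vit-2, a yolk protein gene that the adult intestine transcribes. The libraries labelled L4 had 33305 to 35290 CPM (read counts scaled to a common library size) of vit-2 in mbl-1 and 29396 to 36620 CPM in N2. The 12 transgenic L4 libraries had 471 to 2340 CPM, and the 12 transgenic 2-day adult libraries had 19956 to 58239 CPM. The summed level of 11 oocyte markers gave the same split, with 4094 to 9165 CPM in the mbl-1 and N2 libraries labelled L4 against 28.0 to 114 CPM in transgenic L4 animals. The mbl-1 and N2 libraries labelled L4 thus had the yolk and oocyte transcripts of adults, and they are called "labelled L4" here. The 2-day adult libraries of these genotypes also varied widely within each group. Replicate 3 of mbl-1 was 0.59 lower in the contractile muscle genes and 1.26 higher in the oocyte markers than the mean of its group's other 2 (median log2), and replicate 3 of N2 was 0.99 higher in the contractile genes and 1.07 lower in the oocyte markers. Replicate 1 deviated the other way, by −1.31 in the oocyte markers of mbl-1 and by −0.83 in the contractile genes of N2. The mean it was set against includes replicate 3, which shifts this value. Library pairs were also compared by a median chi-square per gene, higher for less alike pairs. In N2 it was 4.21 for replicates 1 and 2, against 43.3 and 29.2 for pairs with replicate 3. In mbl-1 it was 12.2, against 59.7 and 26.2, so replicate 3 stood farthest apart in both. Results that rest on these libraries are given with all of them, without replicate 3 of both genotypes and, as an alternative added after seeing the data, without replicate 1 of both. All 12 contractile muscle genes (myosins, troponins and others) had reads in every group, with summed levels of 1555 to 12098 CPM. The total count per library was 25251114 to 47914774 reads, so even the lowest value of a member, unc-95 in a 0CUG strain 2 adult library (4.85 CPM), rested on 130 reads. In the mutant, the mbl-1 gene itself had 13.7, 9.73 and 15.04 CPM in mbl-1 labelled L4, against 13.1, 13.2 and 13.7 CPM in N2 labelled L4. Counts over the whole gene do not show whether the mutated part is missing, so the level does not check the genotype label.

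Levels of most of the 10 genes were high in transgenic L4 animals and low in transgenic adults (the plot of levels by library). In RNA of whole animals, fewer muscle cells relative to other cells and less RNA per muscle cell cannot be told apart. The mbl-1 and N2 libraries, under both labels, lay near the transgenic adults. For pat-2 the transgenic L4 libraries had 60.0 to 89.4 CPM (median 76.4) and the transgenic adults 6.59 to 17.0 CPM (median 10.2), with 6.44 to 20.2 CPM (median 11.99) over the mbl-1 and N2 libraries of both labels. For unc-52, the ligand, the transgenic L4 libraries had 253 to 311 CPM, the transgenic adults 31.9 to 60.1 CPM and the mbl-1 and N2 libraries 32.1 to 60.8 CPM. All 12 transgenic L4 libraries lay above all 24 others except in pat-3 and unc-98. How many of all genes had them apart in this way was not counted, so the separation is not read as a trait of the members. By edgeR, 47.1% of all genes tested were lower in 123CUG adults than at L4 and 48.3% in 0CUG adults. Those shares are of calls within a construct, which is another measure. In pat-3 the 36 libraries spanned 76.2 to 182 CPM with the stages interleaved. In unc-98, 123CUG strain 1 at L4 (29.5 to 31.9 CPM) overlapped 123CUG strain 2 adults (16.2 to 35.1 CPM).

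**Figure D1:**
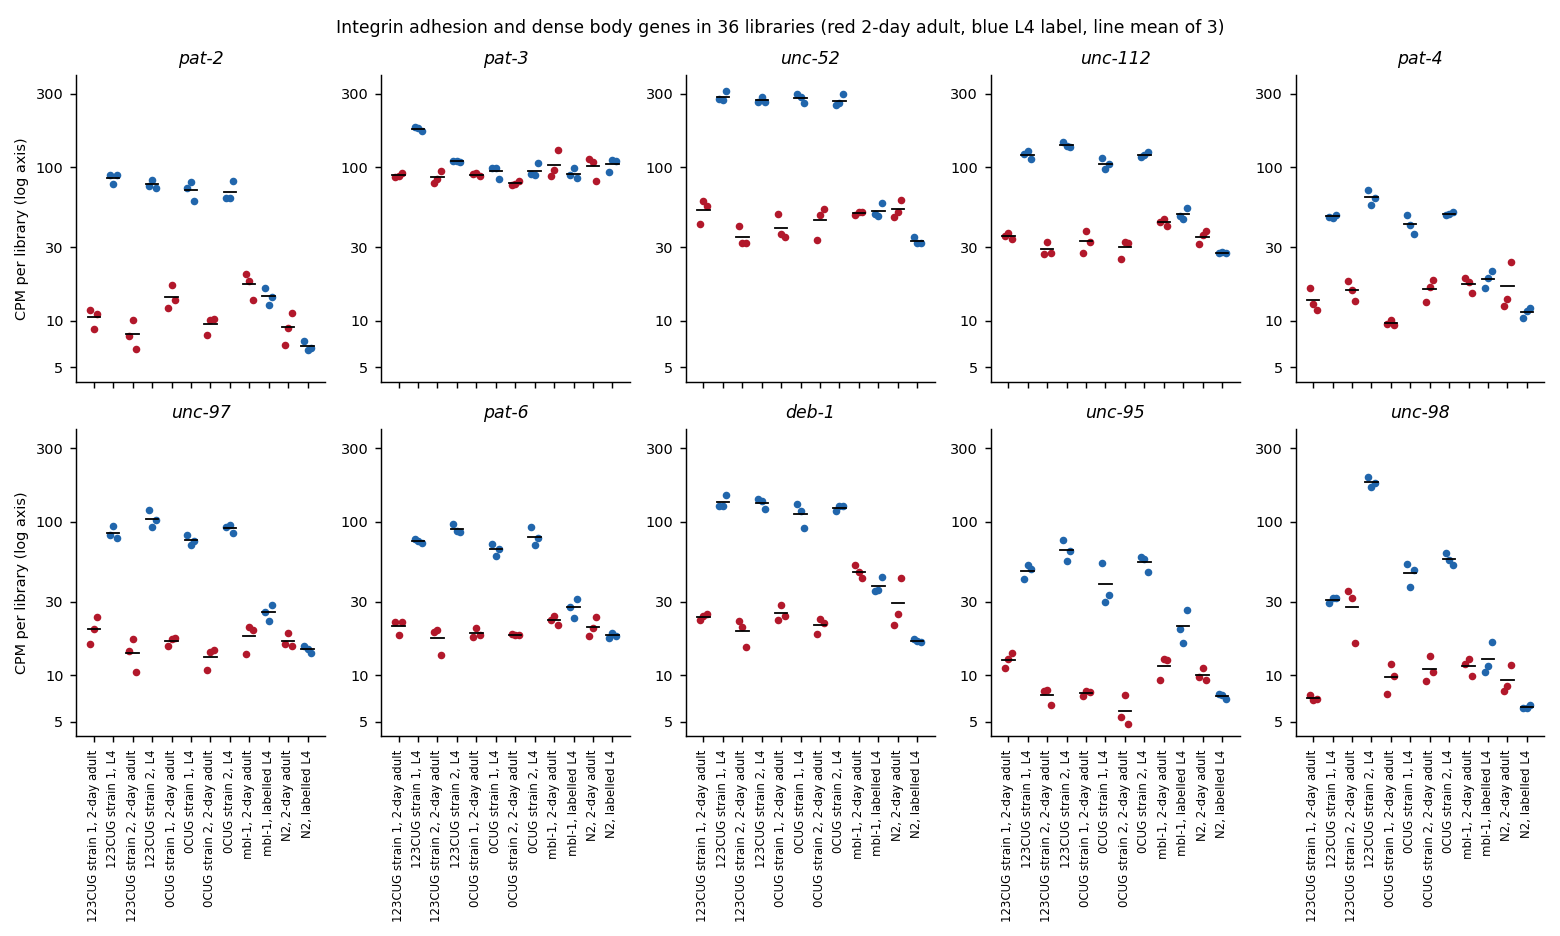
Level of each of the 10 genes in every library, in CPM on a log axis, by group (123CUG, 0CUG, mbl-1 and N2; red, 2-day adult; blue, L4 or labelled L4; black line, mean of 3 libraries). Transgenic L4 libraries stand high in 9 panels, pat-3 is nearly flat but for 123CUG strain 1 at L4 (170 to 182 CPM), and unc-98 peaks in 123CUG strain 2 at L4 (169 to 194 CPM).

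The order of the groups was mostly not resolved beyond this. For unc-52 the 4 transgenic L4 groups, with means of 288 and 272 CPM in 123CUG strains 1 and 2 and 281 and 271 CPM in 0CUG strains 1 and 2, overlapped each neighbour in the order. The same held for pat-2 (means of 85.0, 77.1, 71.2 and 69.3 CPM in 123CUG strains 1 and 2 and 0CUG strains 1 and 2) and for unc-97, deb-1 and unc-95. In pat-6, 0CUG strain 1 was lowest of the 4 by mean, with 71.6, 59.7 and 66.4 CPM. All its libraries lay below those of 123CUG strain 1, the next group by mean. They overlapped 0CUG strain 2, with 91.6, 70.2 and 77.9 CPM. In unc-98 the libraries of 123CUG strain 1 lay below those of 0CUG strain 1, the next group by mean. The exceptions among the highest groups were pat-3 in 123CUG strain 1, and unc-112, pat-4 and unc-98 in 123CUG strain 2, whose 3 libraries lay above all libraries of the next group. At the low end, N2 labelled L4 had the lowest mean of all 12 groups in pat-2, unc-52, unc-112, deb-1 and unc-98.

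Levels of different genes were set side by side per kilobase of gene model. In 0CUG strain 1 at L4 the means ran from 17.9 ± 2.61 (pat-2) and 24.3 ± 1.61 (unc-52) to 49.5 ± 3.93 (unc-97) and 52.1 ± 4.70 CPM per kb (pat-6; SD, n = 3 each), with pat-3 at 32.8 ± 2.99 CPM per kb. In 0CUG strain 2 adults pat-3 stood highest at 27.4 ± 0.813 CPM per kb, pat-6 followed at 14.5 ± 0.222, and pat-2 was lowest at 2.39 ± 0.31. The alpha subunit relative to the beta subunit, pat-2 over pat-3 per length, was lower in transgenic adults than at L4 in every strain (SD, n = 3 libraries each, no test). It was 0.0858 ± 0.0128 and 0.0695 ± 0.0184 in adults of 123CUG strains 1 and 2, against 0.345 ± 0.0334 and 0.507 ± 0.0238 at L4. In 0CUG strains 1 and 2 it was 0.115 ± 0.0186 and 0.0870 ± 0.00951 in adults, against 0.544 ± 0.0386 and 0.524 ± 0.0233 at L4. Libraries labelled L4 had 0.115 ± 0.0201 in mbl-1 and 0.0475 ± 0.00840 in N2. ina-1, which encodes the other alpha subunit and pairs with PAT-3 outside body wall muscle too, had a lower mean relative to pat-3 in adults of each strain. In 123CUG strain 1 the gap was smaller than the SD at L4. ina-1 over pat-3 was 0.285 ± 0.0141 and 0.284 ± 0.0391 in adults of 123CUG strains 1 and 2, against 0.309 ± 0.0290 and 0.432 ± 0.0332 at L4. It was 0.228 ± 0.0144 and 0.442 ± 0.0274 in adults of 0CUG strains 1 and 2, against 0.558 ± 0.0965 and 0.564 ± 0.0404 at L4. These ratios are of read counts in whole animals, and the tissues in which each transcript was made were not separated.

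The comparison of 2-day adults with L4 animals of the same transgenic strains asked how the genes change as the worms reach adulthood. All 10 fell in 123CUG adults and all 10 fell in 0CUG adults (edgeR's quasi-likelihood test, adjusted p under 0.05). Changes were the rule in this comparison: 47.1% of the 17248 genes tested were lower in 123CUG adults and 48.3% were lower in 0CUG adults, and 82.6% and 82.7% changed in either direction. By size the members stood lower than most, with a median log2 difference of −2.54 in 123CUG and −2.42 in 0CUG, beside −0.41 and −0.48 over all genes tested. The oocyte markers moved the other way, with summed levels of 3085 to 4837 CPM in transgenic adults against 28.0 to 114 CPM at L4, and their part in these differences was not tested.

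The alpha subunit fell most in 123CUG and unc-95 fell most in 0CUG. pat-2 was lower by −3.20 ± 0.12 in 123CUG and by −2.68 ± 0.11 in 0CUG (log2 ± SE), unc-52 by −2.78 ± 0.11 and −2.79 ± 0.11, and unc-95 by −2.61 ± 0.14 and −2.86 ± 0.14. In unc-95 the transgenic adults had 4.85 to 14.0 CPM (median 7.86), against 30.2 to 76.2 CPM (median 53.1) at L4. The kindlin unc-112 and the integrin-linked kinase pat-4 fell least of the other members, by −2.09 ± 0.081 and −1.99 ± 0.10 in 123CUG and by −1.93 ± 0.080 and −1.97 ± 0.10 in 0CUG. Their levels were 25.2 to 38.6 CPM in adults against 97.1 to 145 CPM at L4 for unc-112, and 9.35 to 18.5 CPM against 36.8 to 70.8 CPM for pat-4. deb-1 (−2.70 ± 0.099 in 123CUG and −2.43 ± 0.098 in 0CUG), unc-97 (−2.57 ± 0.11 in both), pat-6 (−2.18 ± 0.090 and −2.06 ± 0.089) and unc-98 (−2.50 ± 0.14 and −2.40 ± 0.14) lay between, and adjusted p-values of these 9 genes were at most 1.05e-13.

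The beta subunit was the exception in size. pat-3 had 86.0, 87.3 and 91.8 CPM in 123CUG strain 1 adults against 182, 179 and 170 CPM at L4, and 79.2, 84.1 and 94.95 CPM in 123CUG strain 2 adults against 110, 110 and 107 CPM at L4. In 0CUG it had 90.3, 90.9 and 86.9 CPM in strain 1 adults against 98.8, 98.4 and 83.8 CPM at L4, and 76.2, 77.9 and 80.8 CPM in strain 2 adults against 89.5, 88.7 and 106 CPM at L4. Adults lay below L4 in both 123CUG strains and in 0CUG strain 2, while the libraries of the 2 stages overlapped in 0CUG strain 1. The change was −0.76 ± 0.064 in 123CUG (adjusted p = 2.83e-11) and −0.26 ± 0.064 in 0CUG (adjusted p = 0.000543), and in 0CUG strain 1 alone it was −0.14 ± 0.090 and missed the threshold (adjusted p = 0.166, with 77.7% of all genes called). The 0CUG call was also lost with no low-count filter (−0.20, adjusted p = 0.0587).

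**Figure D2:**
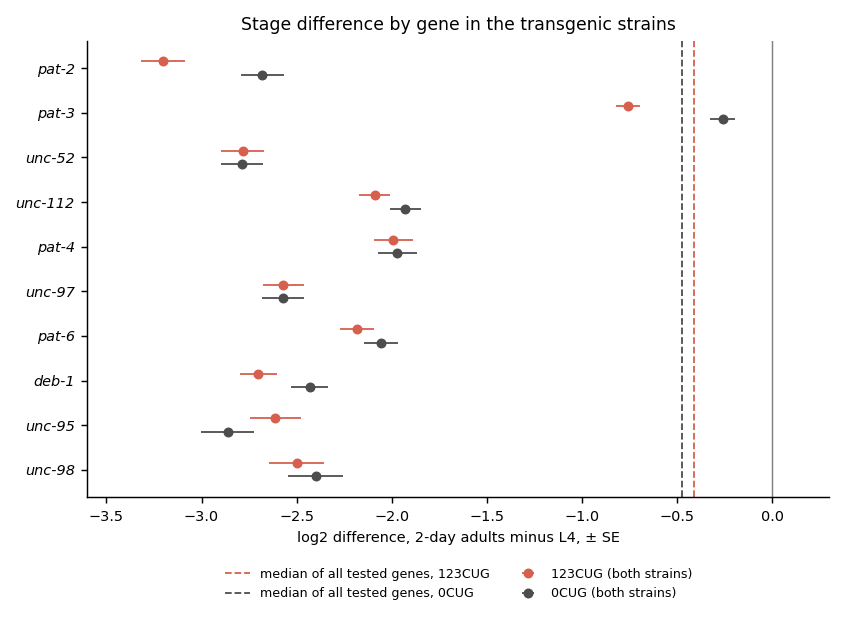
Stage difference of each gene (log2, 2-day adults minus L4, points with SE bars) in 123CUG and 0CUG animals, each over both strains. Dashed lines mark the median of all genes tested (−0.41 in 123CUG and −0.48 in 0CUG); pat-3 is the only member that lies near or right of them in 0CUG (−0.26), and the other members lie between −3.20 and −1.93.

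Neighbouring gene groups fell with the members, and so did most markers of several other tissues. Of 11 neuronal markers 10 fell and 1 rose in both constructs, with medians of −2.85 in 123CUG and −2.55 in 0CUG. Of 10 intestinal markers 7 fell and 3 rose in both. In both, 6 of 8 epidermal markers and all 4 pharyngeal markers tested fell. The part of these tissues in the members' fall was not tested. Of 20 other dense body, M-line and focal adhesion genes, 19 fell and 1 rose in both 123CUG and 0CUG adults, with medians of −1.69 and −1.67. The largest falls were of dim-1, an immunoglobulin domain protein (−3.58 ± 0.14 in 123CUG and −3.602 ± 0.14 in 0CUG), and sorb-1, a sorbin homologue (−3.02 ± 0.19 and −2.74 ± 0.19). The gene that rose was scpl-1, a phosphatase that binds the M-line protein UNC-89 (0.44 ± 0.076 and 0.48 ± 0.075), named here after its value was seen. All 12 contractile genes fell in both, with medians of −2.60 and −2.74, led by tni-1, a troponin I (−5.42 ± 0.12 and −4.94 ± 0.12), and with the promoter gene of the transgenes, myo-3, at −3.87 ± 0.16 and −3.57 ± 0.16. Of 15 other basement membrane genes 12 fell and 2 rose in 123CUG, and 13 fell and 1 rose in 0CUG. him-4 (hemicentin) fell most (−3.40 ± 0.20 and −4.04 ± 0.21), and cle-1 (collagen XVIII) rose in both (0.79 ± 0.15 and 0.76 ± 0.14; named after its value was seen, as is lam-3, which rose by 0.85 ± 0.20 in 123CUG). Of 9 fibrous organelle genes, which tie the epidermis over the muscle to the cuticle, 7 fell and 1 (ifb-1, an intermediate filament, 0.30 ± 0.083, named after its value was seen) rose in 123CUG, and 8 fell in 0CUG, led by mua-3, a transmembrane protein (−5.35 ± 0.14 and −5.19 ± 0.13).

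Between the 2 labels of the mbl-1 and N2 animals this fall was not called. In mbl-1, 0 of the 10 genes were called between 2-day adults and libraries labelled L4 (0.563% of 14027 genes called). There 2 members and 2066 of all genes had an unadjusted p under 0.05, and 1 member, unc-95, was called by DESeq2 (4.64% of all genes). In N2 also 0 of 10 were called (0% of 14027), with 6 members and 2098 of all genes at an unadjusted p under 0.05 and 1, unc-52, called by DESeq2 (0.0806% of all genes). The members' median differences were −0.14 in mbl-1 and 0.41 in N2. In N2, unc-52 had 47.2, 51.4 and 60.8 CPM in 2-day adults, against 35.3, 32.1 and 32.1 CPM in libraries labelled L4. In mbl-1, unc-95 had 9.27, 12.7 and 12.6 CPM in 2-day adults, against 19.99, 16.2 and 26.6 CPM in libraries labelled L4. Neither pair of groups overlapped, but edgeR's adjusted p was 0.333 for unc-52 and 0.0774 for unc-95. Other members separated too. In N2 the 2-day adult libraries also lay above in unc-112, pat-4, deb-1, unc-95 and unc-98. In mbl-1 they also lay below in unc-97 and unc-112. The share of all genes without overlap is not given here. Without replicate 3 of both 2-day adult groups, unc-95 (−0.92, adjusted p = 0.00391) and unc-97 (−0.58, adjusted p = 0.0276) were lower and deb-1 (0.38, adjusted p = 0.0386) was higher in mbl-1 2-day adults, where 20.4% of 14414 genes were called, and 0 members were called in N2. Without replicate 1 of both, edgeR called 0 members in either genotype.

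The comparison of mbl-1(tm1563) with N2 bears on the loss of muscleblind. Among libraries labelled L4, 9 of the 10 genes were higher in mbl-1 and none was lower. As 29.7% of the 13264 genes tested were higher and 51.4% were called in either direction, the count of calls is to be read against a wide background. The members' median was 0.80 on the log2 scale, beside 0.03 over all genes tested, and in the 9 genes the 3 mbl-1 libraries lay above the 3 N2 libraries (the libraries of the 2 groups did not overlap in 59.7% of all genes). Both groups had adult levels of yolk and oocyte transcripts.

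unc-95 rose most. It had 19.99, 16.2 and 26.6 CPM in mbl-1, against 7.60, 7.45 and 7.04 CPM in N2, a difference of 1.48 ± 0.16 (adjusted p = 3.36e-06). For deb-1 the libraries had 35.5, 35.7 and 43.8 CPM in mbl-1, against 17.1, 16.7 and 16.6 CPM in N2 (1.17 ± 0.11, adjusted p = 1.1e-06). pat-2 had 16.4, 12.7 and 14.3 CPM in mbl-1, against 7.39, 6.44 and 6.64 CPM in N2 (1.06 ± 0.14, adjusted p = 3.32e-05). In these 3 genes, and in unc-98 (10.5, 11.4 and 16.5 CPM in mbl-1, against 6.14, 6.17 and 6.38 CPM in N2, 1.02 ± 0.16), the fitted level in mbl-1 was 2.02 to 2.79 times that in N2.

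Adaptors of the kinase complex and the ligand rose less. unc-112 had 47.8, 46.1 and 54.4 CPM in mbl-1, against 27.5, 28.0 and 27.6 CPM in N2 (0.82 ± 0.097, adjusted p = 9.76e-06). The differences of unc-97 (0.78 ± 0.12), pat-4 (0.71 ± 0.13), unc-52 (0.62 ± 0.10) and pat-6 (0.59 ± 0.12) had adjusted p-values of at most 0.000999. The call of pat-4 was lost when all 12 mbl-1 and N2 libraries shared 1 estimate of the spread (0.70, adjusted p = 0.0846). pat-3 was not called, with 89.4, 98.3 and 84.5 CPM in mbl-1, against 92.9, 111 and 110 CPM in N2, and the groups overlapped (−0.22 ± 0.099, adjusted p = 0.0739). It passed the threshold without mbl-1 replicate 2 (−0.30, adjusted p = 0.0153) or without N2 replicate 1 (−0.29, adjusted p = 0.0371), in DESeq2 (−0.28, adjusted p = 0.0389) and in the authors' deposited table (−0.28, adjusted p = 0.0400).

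**Figure D3:**
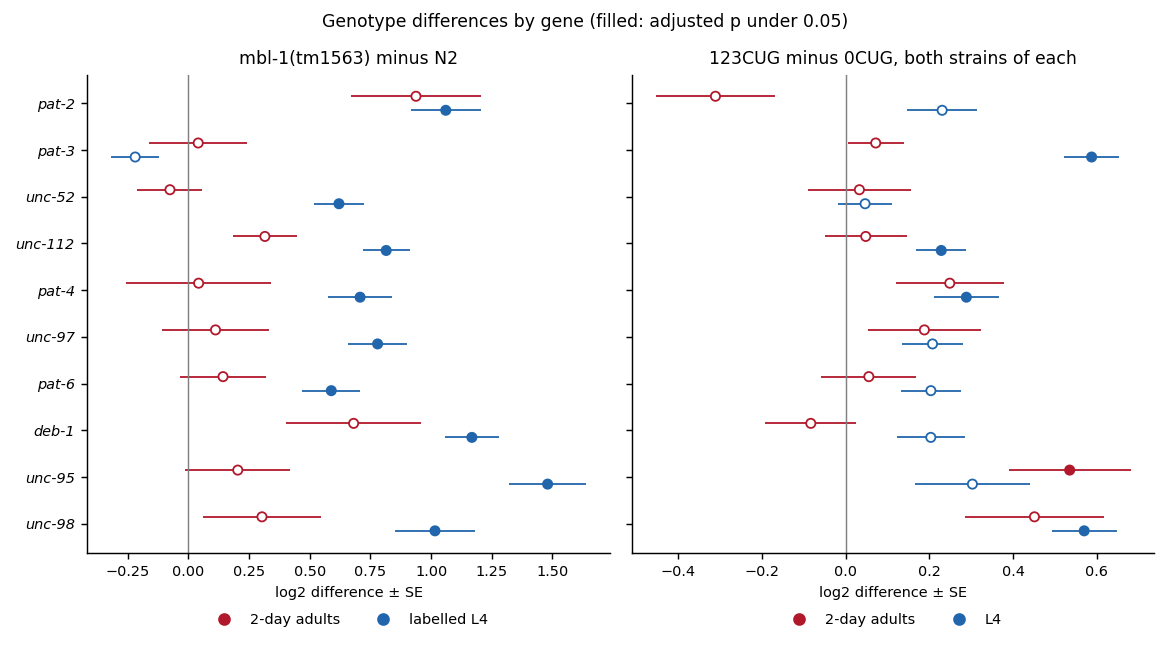
Difference of each gene between genotypes (log2, points with SE bars; filled where the adjusted p was under 0.05) in 2-day adults (red) and in L4 or labelled L4 libraries (blue). Left, mbl-1 minus N2: the 9 filled points lie between 0.59 and 1.48, and all are of libraries labelled L4. Right, 123CUG minus 0CUG over both strains of each, on a narrower axis: 4 points at L4 and 1 in adults are filled, between 0.23 and 0.59.

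Other muscle genes were also higher in mbl-1 libraries labelled L4. Of the 20 other adhesion genes 15 rose and 0 fell (median 0.90), led by dim-1 (1.70 ± 0.12), unc-89, the giant M-line protein related to obscurin (1.31 ± 0.13), and atn-1, the alpha-actinin of dense bodies (1.19 ± 0.098). Of the 12 contractile genes 11 rose (median 1.55), with tnt-2 (a troponin T), unc-54 (the major myosin heavy chain) and unc-87 (an actin-binding calponin-like protein) at 1.83 ± 0.13, 1.79 ± 0.12 and 1.70 ± 0.12. Of the basement membrane genes 9 rose and 2 fell. let-2, a collagen IV chain, rose by 1.14 ± 0.10 and him-4 by 1.09 ± 0.20, while lam-3, a laminin alpha chain (−0.85 ± 0.18), and nid-1, nidogen (−0.53 ± 0.088), were lower and are named after their values were seen. Of the fibrous organelle genes 7 rose, vab-19 and mua-6 the most (0.73 ± 0.14 and 0.72 ± 0.11).

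Marker genes of other tissues moved in this comparison as well. Of 11 neuronal markers 9 rose and 0 fell (median 0.82, summed level 296 to 368 CPM in mbl-1 against 205 to 230 CPM in N2), and of 10 intestinal markers 6 rose and 0 fell (median 0.44). Of 11 oocyte markers 10 fell (median −0.65), with summed levels of 4094 to 6541 CPM in mbl-1 against 6801 to 9165 CPM in N2. Their part in the members' differences was not tested.

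**Figure D4:**
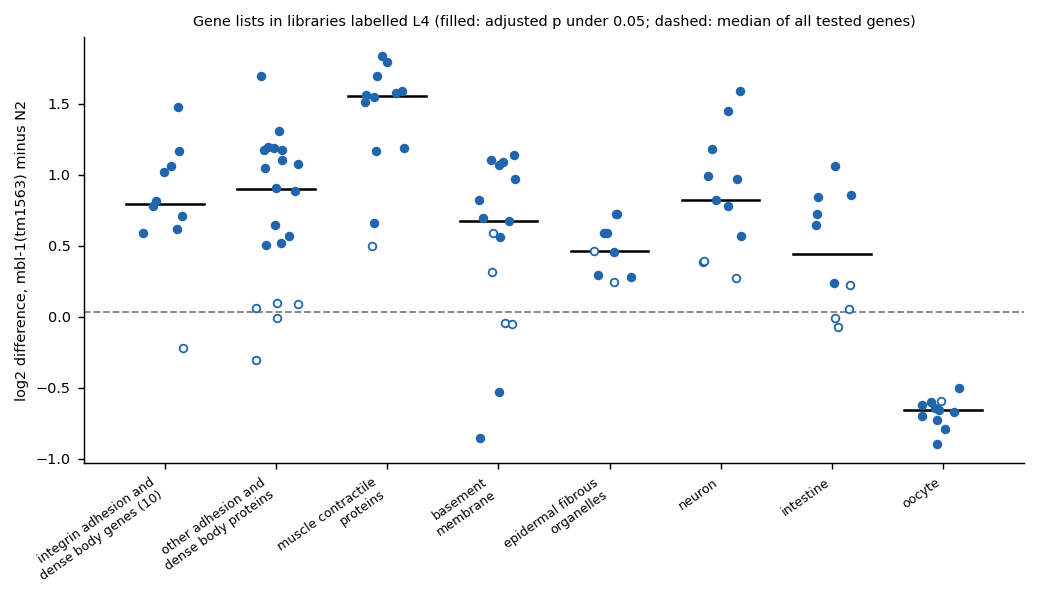
Difference of each gene (log2, mbl-1 minus N2, libraries labelled L4) by gene list, with the median of each list as a bar and the median of all genes tested as a dashed line (0.03). Filled points passed the test at an adjusted p under 0.05. The 10 adhesion genes (median 0.80) lie with the other adhesion genes (0.90) and neuronal markers (0.82), below the contractile genes (1.55) and above the oocyte markers (−0.65).

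In 2-day adults 0 of the 10 genes were called between mbl-1 and N2 by edgeR (0% of 13286 genes called) or by DESeq2 (107 of all genes called), with 2 members and 695 of all genes at an unadjusted p under 0.05 in edgeR. The members' median difference was 0.17, beside 0.01 over all genes. The libraries of pat-2 did not overlap, with 20.2, 18.1 and 13.7 CPM in mbl-1 against 6.95, 9.004 and 11.3 CPM in N2 (0.94 ± 0.27, adjusted p = 0.812), nor did those of unc-112, with 44.0, 45.9 and 41.3 CPM against 31.7, 35.96 and 38.3 CPM (0.32 ± 0.13, adjusted p = 0.91). Libraries did not overlap in 9.08% of all genes. In deb-1 the libraries of replicate 3 met, with 42.8 CPM in each genotype, while the others had 51.9 and 47.3 CPM in mbl-1 against 21.2 and 25.0 CPM in N2. Without replicate 3 of both groups, deb-1 (1.12, adjusted p = 0.00461) and pat-2 (1.27, adjusted p = 0.00877) were higher in mbl-1, as were 21.7% of the 13616 genes tested. Without replicate 1 of both groups in their place, deb-1 (0.41) and pat-2 (0.65) were not called, with an adjusted p of 0.9999 each and 0% of 13371 genes called by edgeR, so the calls rest on which libraries are kept. The test of whether the mbl-1 difference itself varied with the label called 0 of 10 members in edgeR (0.00713% of 14027 genes). At an unadjusted p under 0.05 it had 6 members and 1364 of all genes. First among the 6 were unc-95 (−1.29 ± 0.28, adjusted p = 0.209) and unc-52 (−0.71 ± 0.15, adjusted p = 0.209). DESeq2 called these 2 (1.02% of all genes), as did edgeR without replicate 3 of both groups (6.10%) but not without replicate 1 of both.

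The comparison of 123CUG with 0CUG animals bears on the expression of expanded CUG repeats in muscle. At L4, 4 of the 10 genes were higher in 123CUG in the mean over both strains and none was lower. Of the 16210 genes tested, 5.09% were higher and 14.4% were called in either direction. The 4 members were pat-3 (0.59 ± 0.065, adjusted p = 2.05e-06), unc-98 (0.57 ± 0.078, adjusted p = 2.7e-05), pat-4 (0.29 ± 0.077, adjusted p = 0.0151) and unc-112 (0.23 ± 0.060, adjusted p = 0.0126). These p-values measure the spread between libraries within strains, not the spread between strains of a construct. The members' median was 0.23, beside 0.02 over all genes. In none of the 10 genes did each of the 4 pairings of a 123CUG with a 0CUG strain call the difference in 1 direction (of all genes, 0.117% were higher in all 4 and 1.43% lower). The pairs share strains and are not independent of each other. Against 0CUG strains 1 and 2, 123CUG strain 1 differed in 16.8% and 13.6% of all genes and strain 2 in 8.78% and 3.78%. Germline and yolk genes differed between the constructs as well. Of 9 sperm markers 6 were lower in 123CUG, with summed levels of 9.36 to 27.8 CPM in 123CUG against 30.7 to 68.4 CPM in 0CUG, and vit-2 had 471 to 845 CPM in 123CUG against 1267 to 2340 CPM in 0CUG. Their part in the members' differences was not tested.

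The calls of pat-3 and unc-98 came from 1 strain each. pat-3 had 182, 179 and 170 CPM in 123CUG strain 1 and 110, 110 and 107 CPM in 123CUG strain 2, against 98.8, 98.4 and 83.8 CPM in 0CUG strain 1 and 89.5, 88.7 and 106 CPM in 0CUG strain 2. Against the 2 0CUG strains, strain 1 differed by 0.99 and 0.91 (adjusted p = 1.93e-07 and 7.81e-07) and strain 2 by 0.26 and 0.18 (adjusted p = 0.0877 and 0.415). unc-98 had 29.5, 31.6 and 31.9 CPM in 123CUG strain 1 and 194, 169 and 179 CPM in 123CUG strain 2, against 52.8, 37.8 and 48.3 CPM in 0CUG strain 1 and 62.5, 56.5 and 52.1 CPM in 0CUG strain 2. Strain 2 lay above both controls, by 2.01 and 1.65, and strain 1 lay below both, by −0.51 (adjusted p = 0.00318) and −0.87 (adjusted p = 1.55e-05), so that the mean over strains, 0.57, described neither.

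pat-4 and unc-112 were highest in 123CUG strain 2. pat-4 had 47.1, 47.0 and 49.1 CPM in 123CUG strain 1 and 70.8, 56.9 and 63.1 CPM in 123CUG strain 2, against 49.0, 41.9 and 36.8 CPM in 0CUG strain 1 and 48.6, 49.2 and 50.9 CPM in 0CUG strain 2. unc-112 had 122, 126 and 113 CPM in 123CUG strain 1 and 145, 138 and 135 CPM in 123CUG strain 2, against 114, 97.1 and 105 CPM in 0CUG strain 1 and 116, 120 and 126 CPM in 0CUG strain 2. For both genes the libraries of the 2 constructs overlapped. Of the 4 pairs, 123CUG strain 2 with 0CUG strain 1 called the most members, 6 of 10 (8.78% of all genes). They were unc-98, pat-4 (0.62, adjusted p = 0.000782), unc-112, and the 3 genes unc-97 (0.50, adjusted p = 0.00362), pat-6 (0.49, adjusted p = 0.0035) and unc-95 (0.78, adjusted p = 0.023), which were called in no other pair at L4. That pair and 123CUG strain 1 with 0CUG strain 1 called unc-112 (0.45 and 0.27). The authors' deposited tables called unc-112 in the first of these pairs (0.45, adjusted p = 9.3e-05) but not in the second (0.26, adjusted p = 0.0859). They did not call unc-95 for 123CUG strain 2 with 0CUG strain 1 (0.78, adjusted p = 0.0920). Between 123CUG strain 1 and 0CUG strain 2 the edgeR differences were −0.05 for pat-4 and 0.01 for unc-112. The choice of library also moved the count: without replicate 1 of 0CUG strain 1, 8 of the 10 genes were called (12.4% of all genes), and without replicate 2 of 0CUG strain 2, 2 were called (10.4% of all genes), as pat-4 and unc-112 were lost. pat-4 was also lost without replicate 1 of 123CUG strain 2. The genes not called over both strains had differences of 0.05 ± 0.064 (unc-52) to 0.30 ± 0.14 (unc-95).

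In 2-day adults 1 of the 10 genes, unc-95, was higher in 123CUG in the mean over both strains (0.53 ± 0.15, adjusted p = 0.0214). Of the 14070 genes tested, 5.74% were higher and 10.1% were called in either direction. unc-95 had 11.2, 12.7 and 14.0 CPM in 123CUG strain 1 and 7.88, 7.97 and 6.38 CPM in 123CUG strain 2, against 7.31, 7.93 and 7.84 CPM in 0CUG strain 1 and 5.35, 7.50 and 4.85 CPM in 0CUG strain 2. Only strain 1 lay above the controls, and strain 2 against 0CUG strain 1 gave −0.08 (adjusted p = 0.863). The call was lost when any 1 of 6 of the 12 libraries was left out (123CUG strain 1 replicate 3, 123CUG strain 2 replicates 1 and 2, 0CUG strain 1 replicates 1 and 2, or 0CUG strain 2 replicate 3; 0.47 to 0.63 over all 12, adjusted p up to 0.0701). unc-98 was highest in strain 2, with 7.41, 6.86 and 7.04 CPM in 123CUG strain 1 and 35.1, 31.9 and 16.2 CPM in 123CUG strain 2, against 7.61, 11.8 and 9.83 CPM in 0CUG strain 1 and 9.13, 13.4 and 10.5 CPM in 0CUG strain 2. In the mean over both strains unc-98 was not called (0.45 ± 0.17, adjusted p = 0.0947), but without replicate 3 of 123CUG strain 2 it was (0.59, adjusted p = 0.00342). Against 0CUG strains 1 and 2, 123CUG strain 2 was higher by 1.48 and 1.39 (adjusted p = 0.000166 and 0.000407). 123CUG strain 1 was lower and not called (−0.49 and −0.58, adjusted p = 0.137 and 0.107), so the mean described neither strain. The same background for all 4 strain pairs was 0.192% of genes higher and 0.220% lower, and none of the 10 genes was called in all 4. Against 0CUG strains 1 and 2, 123CUG strain 1 adults differed in 27.6% and 15.3% of all genes and strain 2 adults in 13.9% and 20.3%. pat-2 was lower in 123CUG strain 2 than in 0CUG strain 1 (−0.82, adjusted p = 0.00831). For 123CUG strain 1 against 0CUG strain 1 it had −0.47 in edgeR (adjusted p = 0.0899) and was called in the authors' deposited table (−0.49, adjusted p = 0.0474), and against 0CUG strain 2 neither 123CUG strain was called. Of the 11 oocyte markers 6 fell in 123CUG adults (median −0.31), with summed levels of 3085 to 4187 CPM in 123CUG against 3846 to 4837 CPM in 0CUG, and their part in the members' differences was not tested.

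The other gene lists were compared between the constructs in the same fits. At L4, where 14.4% of all genes were called, 1 of the 20 other adhesion genes (rsu-1, which binds PINCH in Drosophila, 0.27 ± 0.071) and 1 of the 12 contractile genes (tni-1, 0.36 ± 0.081) rose in 123CUG. The 9 fibrous organelle genes had differences of −0.02 to 0.17, and none of them was called by edgeR (1 at an unadjusted p under 0.05, beside 4379 of all genes). Of the 15 basement membrane genes agr-1, agrin, rose by 0.87 ± 0.19 and lam-3 fell by −1.61 ± 0.20. In adults, where 10.1% of all genes were called, 2 adhesion genes rose (cpna-1, a copine domain protein, 0.50 ± 0.12, and zyx-1, zyxin, 0.33 ± 0.092). Contractile genes went both ways, with 4 higher, tnt-2 the most (0.45 ± 0.084), and 1 lower, the titin-like kinase unc-22 (−0.50 ± 0.15). him-4 (1.09 ± 0.18) and agr-1 (1.34 ± 0.23) rose, lam-3 fell (−0.63 ± 0.17), and 3 fibrous organelle genes rose (mua-6, 0.56 ± 0.092, pat-12, 0.37 ± 0.076, and ifb-1, 0.30 ± 0.092).

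Differences between the 2 strains of a construct were then tested directly. Between 123CUG strain 1 and strain 2 at L4, pat-3 was higher in strain 1 (0.73 ± 0.093, adjusted p = 1.88e-05) and pat-4 (−0.38 ± 0.11, adjusted p = 0.0308) and unc-98 (−2.51 ± 0.12, adjusted p = 9.87e-12) were lower, where 4.90% of 16210 genes were higher and 4.73% lower (9.63% in all). Of 11 oocyte markers 5 were lower in strain 1 (median −1.06). The pat-4 call was lost without any 1 of 5 libraries (123CUG strain 1 replicates 1, 2 and 3, and 123CUG strain 2 replicates 1 and 3; adjusted p up to 0.148). In adults unc-95 was higher (0.76 ± 0.21, adjusted p = 0.0311) and unc-98 lower (−1.97 ± 0.24, adjusted p = 1.34e-05) in strain 1, where 3.46% of 14070 genes were higher and 1.93% lower (5.39% in all). Of 12 contractile genes 8 were higher in strain 1 there (median 0.66). The unc-95 call was lost without any 1 of the 6 adult libraries of the 123CUG strains (adjusted p up to 0.126). Between 0CUG strains 1 and 2 at L4, edgeR and DESeq2 called 0 of 10 members (1.18% of genes in edgeR), with 6 members and 2379 of all genes at an unadjusted p under 0.05. In adults of the 0CUG strains pat-2 (0.67 ± 0.20) and pat-3 (0.27 ± 0.095) were higher and pat-4 (−0.65 ± 0.18) was lower in strain 1, but 44.6% of all genes were called there, 22.3% higher and 22.3% lower. All 10 intestinal markers were lower in strain 1 (median −1.28, summed level 50638 to 62916 CPM in strain 1 against 122367 to 152252 CPM in strain 2), and 6 of 11 oocyte markers were higher (median 0.33). The part of these markers in the strain differences was not tested. Without replicate 2 of 0CUG strain 1 the calls of pat-2 and pat-3 were lost (0.47 and an adjusted p of 0.131 for pat-2), and pat-3 was also lost without any 1 of 5 further libraries. Each strain carries its own transgene, so strain and transgene cannot be told apart here.

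The genes around unc-98 were examined next, since the difference between strains was largest there among the members. Of the 9 tested genes that lie within 20 kb of it (differences of −1.01 to 1.84), 2 were called between the 123CUG strains at L4, both higher in strain 1: sto-1 (0.98 ± 0.20, adjusted p = 0.00343) and apy-1 (0.39 ± 0.077, adjusted p = 0.00281), named after their values were seen. pcyt-1, which overlaps unc-98 on the opposite strand by 1320 bases but shares no exonic base with it, had 81.8, 113 and 122 CPM in 123CUG strain 1 and 128, 130 and 124 CPM in strain 2 (−0.24 ± 0.12, adjusted p = 0.23). In adults the differences of 8 neighbours ran from −0.30 to 2.79, with adjusted p-values of at least 0.277. Around pat-3, those of 10 neighbours at L4 ran from −0.54 to 0.11, with adjusted p-values of at least 0.131. Whether the library kit kept strand is not given in the sources used here, and small exonic overlaps with genes on the opposite strand exist for pat-2 (F54F2.9, 41 bases) and unc-112 (gasr-8, 122 bases), and on the same strand for unc-98 (F08C6.18, 30 bases), whose reads could be shared.

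**Figure D5:**
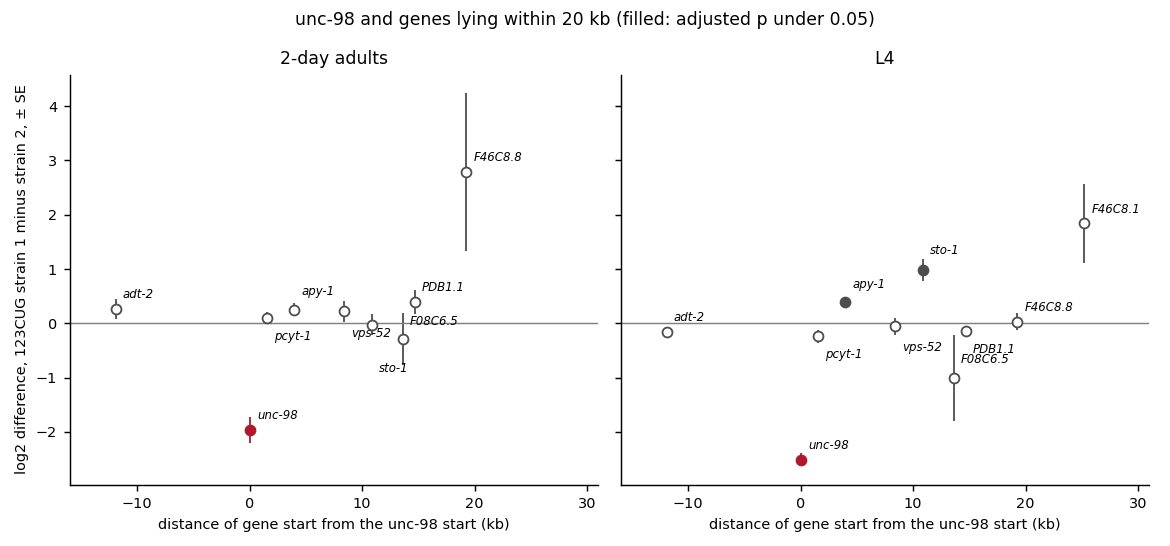
Difference between the 123CUG strains (log2, strain 1 minus strain 2, points with SE bars; filled where the adjusted p was under 0.05) for unc-98 (red) and tested genes that lie within 20 kb of it (grey), by the distance of their start from the unc-98 start in kb. unc-98 lies at −1.97 in 2-day adults and −2.51 at L4; of the neighbours sto-1 and apy-1 at L4 are filled, on the other side of 0.

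Whether the repeat difference varied with stage was tested as an interaction over the 24 transgenic libraries. It was called for 2 of 10 members, pat-3 (−0.50 ± 0.090, adjusted p = 0.000741) and pat-2 (−0.52 ± 0.15, adjusted p = 0.0432), both negative, where 1.95% of 17248 genes were negative and 5.93% were called in either direction (686 positive and 336 negative in edgeR, 869 and 687 in DESeq2). For pat-3 the 123CUG difference was 0.07 ± 0.067 in adults and 0.59 ± 0.065 at L4. For pat-2 it was −0.31 ± 0.14 in adults and 0.23 ± 0.083 at L4, neither of them called. In the same test 5 of 11 oocyte markers were negative (median −0.61) and 5 of 10 intestinal markers positive (median 0.42), and their part was not tested. The pat-2 call was lost when any 1 of 17 of the 24 libraries was left out (−0.69 to −0.46, adjusted p up to 0.108). That of pat-3 was kept without each of the 24 (adjusted p up to 0.00395). By strain, the change of pat-3 from L4 to adults was −1.07 in 123CUG strain 1 but −0.44 in 123CUG strain 2. It was −0.14 and −0.39 in 0CUG strains 1 and 2. Leaving out single libraries does not show how far the pat-3 call rests on 123CUG strain 1.

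The mean pattern of the members over the 12 groups was described by centring each gene's log2 group means. The root mean square (RMS) distance of each gene from the mean of the members was then taken. That mean includes the members themselves. Among the members pat-6 lay closest to that mean (0.114) and unc-112 next (0.141). unc-98 (0.686) and pat-3 (0.876) were farthest, and the closest pair was unc-112 with pat-6 (0.0943). Of the 9652 genes with a mean of at least 5 CPM, the closest that were no members were jph-1, which encodes junctophilin (0.118), ttbk-7 (0.121), nep-21 (0.122), K11D12.11 (0.135) and F44A2.5 (0.141). In rank among the 9652 genes pat-6 was 1, unc-112 6, unc-97 23, pat-4 64 and deb-1 73. The ranks of unc-95 (244), unc-52 (316), pat-2 (624), unc-98 (1971) and pat-3 (2954) were farther down. The 12 means share 1 scaling, and the distance is a description of these groups.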

How the data were processed

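RNA-seq reads of whole animals were deposited by the authors as raw read counts per gene, in 10 tables that each also hold the authors' own log2 fold changes and p-values for a comparison. Counts of the same library did not differ between tables (465954 equal, 0 different). The submitters' processing notes name HISAT2, DESeq2 and the build WBcel235. The read counter, its strand setting and the annotation were not stated in the notes or labels at hand. Of the 24931 named genes 24426 were matched to a symbol, and 500 unnamed loci (0.0201% to 0.0643% of reads) stayed out. Ribosomal RNA took 0.219% to 9.96% of reads.

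The counts were fitted with edgeR 4.0.16 in R 4.3.3 (TMM scaling, filterByExpr, quasi-likelihood F test, Benjamini-Hochberg adjustment over all genes tested), and genes were called at an adjusted p under 0.05. Scripts were tested on simulated data. The SE is the log2 difference divided by the root of F, and levels are CPM on 1 TMM scale over the 36 libraries. mbl-1 and N2 were fitted as 6 libraries per label, the transgenic comparisons as 12 per stage and the stage comparisons as 24 or 12. Alternatives were DESeq2 1.42.0, its size factors in edgeR, no low-count filter, a replicate block, single strain pairs, each library left out and replicate 3 of both mbl-1 and N2 2-day adults left out. Leaving out replicate 1 of both was an alternative chosen after seeing the data. The labels do not say whether libraries came from separate cultures, so p-values measure the spread between libraries, which may be technical. No 2 libraries of a group agreed within sampling noise (lowest median chi-square 2.02, against 0.455 from sampling alone).

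All members were named, with at most the 3 called genes of largest difference from each of 4 gene lists, and the 5 genes most like the members. The members and lists were chosen with earlier results of these data known.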

Additional observations from a re-analysis of the deposited data

Results flagged for a closer look

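The tests of the repeat difference by stage and of 123CUG strain 1 against strain 2 singled out 7 results. Differences between the 0CUG strains were not among those looked at for this list. The calls of pat-2, pat-4 and unc-95 in it were lost when single libraries were left out. The repeat difference (123CUG minus 0CUG) was lower in 2-day adults than at L4 by −0.50 for pat-3 and by −0.52 for pat-2 on the log2 scale. For pat-3 the change from L4 to adults was −1.07 in 123CUG strain 1 and −0.44 in 123CUG strain 2. Between 123CUG strain 1 and strain 2 at L4, pat-3 differed by 0.73, pat-4 by −0.38 and unc-98 by −2.51 (log2, strain 1 minus strain 2). In 2-day adults of the same strains unc-95 differed by 0.76 and unc-98 by −1.97.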

How the results depend on the processing

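The fall of the 10 genes in 2-day adults of both constructs was called under the alternatives run for it, except for pat-3 in 0CUG, which was lost in strain 1 alone (−0.14, adjusted p = 0.166) and with no low-count filter (−0.20, adjusted p = 0.0587), and 9 to 10 of the genes were called between mbl-1 and N2 labelled L4 with each library left out in turn. The other counts of members called moved, and their causes were not tested. Between 123CUG and 0CUG at L4 (4 called), strain 2 against 0CUG strain 1 gave 6, strain 1 against 0CUG strain 2 gave 2, strain 2 against 0CUG strain 2 gave 1, and leaving out 1 library gave 2 to 8. In adults (1 called), strain 1 against 0CUG strain 2 gave 2, strain 2 against 0CUG strain 1 gave 3, no low-count filter gave 2, and leaving out 1 library gave 0 to 2. Directions turned for unc-98 at L4 in strain 1 against 0CUG strain 1 (−0.51) and 0CUG strain 2 (−0.87), for pat-4 at L4 in strain 1 against 0CUG strain 2 (−0.045), and for unc-95 in adults in strain 2 against 0CUG strain 1 (−0.078). Without replicate 3 of both mbl-1 and N2 adults, 2 members were called between mbl-1 and N2 adults (0 with them), 3 between the labels in mbl-1 (0) and 2 in the test of the mbl-1 difference by label (0). Without replicate 1 of both, an alternative chosen after seeing the data, edgeR called 0 members in each of these and in N2. DESeq2 called 1 between the labels in N2, 1 in mbl-1 and 2 in that test (0 each in edgeR), and without N2 adult replicate 3 1 was called between the labels in mbl-1, so leaving out 1 library gave 0 to 1. Between strains, leaving out 1 library gave 0 to 2 in 0CUG at L4 (0 called, and 2 with no low-count filter), 1 to 3 in 0CUG adults (3 called) and 1 to 3 in 123CUG adults (2 called). For the repeat difference by stage (2 called) it gave 1 to 2.

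Replicate numbers are shared between groups, but libraries of the same number did not deviate together throughout (correlations of −0.864 to 0.635), so the numbers were not taken as pairs. The lowest values were of mbl-1 with N2 2-day adults, −0.797 for replicate 1 and −0.864 for replicate 3. These libraries deviated from their groups in opposite directions, and the reason was not tested. With the replicate block, the repeat difference by stage called 1 member, as pat-2 was lost (−0.52, adjusted p = 0.0553).

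Counts over all genes that moved by more than 1.5 times were, for mbl-1 against N2 adults, 0 in edgeR, 107 in DESeq2, 4416 without replicate 3 of both and 79 in the fit of all 12 libraries, which called 996 in place of 6821 for the libraries labelled L4. Between the labels, N2 gave 0 and 13 in DESeq2, and mbl-1 gave 79, with 651 in DESeq2, 44 under DESeq2 size factors, 1 with the replicate block, 2946 without replicate 3 of both, 12 without replicate 1 of both and 1 to 604 with 1 library left out. The mbl-1 difference by label gave 1, with 0 with the replicate block, 143 in DESeq2, 879 without replicate 3 of both and 1 to 64 with 1 left out. The 0CUG strains at L4 gave 191, with 563 in DESeq2, 714 without a filter and 105 to 333 with 1 left out. The repeat difference gave 2342 at L4, with 1423 and 612 in strain 2 against 0CUG strains 1 and 2, and 1416 in adults, with 3887 and 2146 in strain 1 against 0CUG strains 1 and 2, 2858 in strain 2 against 0CUG strain 2 and 937 to 2172 with 1 left out, and by stage 1022, with 1556 in DESeq2. The 123CUG strains gave 759 in adults, with 1169 without a filter and 429 to 824 with 1 left out, and 1561 at L4, with 880 to 1854. DESeq2 size factors moved the 120 group levels by −9.62% to 7.37% and 30 of them by over 1 SD.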
